A study of Rattus norvegicus with 9 samples.

Results

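The 10 genes described here are regulators of mitochondrial biogenesis, chosen by name: the coactivators Ppargc1b and Pprc1, the transcription factors Nrf1, Gabpa and Esrra, and the mitochondrial DNA (mtDNA) factors Tfam, Tfb1m, Tfb2m, Polg and Polrmt. All 10 were found among the 36856 genes to which the deposited transcript values were summed, and all 10 passed the filter that left 14706 genes for testing. The cells are H9c2(2-1), a wild-type line of myoblasts from embryonic BD1X rat heart, grown in serum-containing medium. The study holds 3 libraries of untreated cells in normal medium (Control), 3 of cells treated with energized structured water (ESW) and 3 of cells treated with a control water (CW). Each water was diluted to 0.01 and applied over 72 h, freshly mixed every 24 h. Such times are given for the ESW and CW samples alone, and the Control samples have none. Control cultures may therefore have been handled differently, whereas ESW and CW share their stated schedule and dilution. The part of handling in any difference from Control was not tested. No allele or other agent is named for any group. Separate cultures within a group are not stated in the labels, so every p-value rests on the spread between the samples as they are, and that spread may be technical.

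Most mitochondrial proteins are encoded in the nucleus, and mitochondrial biogenesis depends on their coordinated transcription together with replication and transcription of mtDNA. Coactivators of the PGC-1 family, such as the products of Ppargc1b and Pprc1, have no DNA-binding activity of their own. They dock on factors such as nuclear respiratory factor 1 (Nrf1), the ETS factor GABP, whose DNA-binding subunit is Gabpa, and the oestrogen-related receptor alpha (Esrra). These factors act on genes of the respiratory chain and on genes of the mtDNA machinery. Nrf1 is unrelated to Nfe2l2, the oxidant-response factor that is also called NRF2. Within the organelle, TFAM packages mtDNA and bends its promoters, TFB2M opens the promoter, and POLRMT is the RNA polymerase. TFB1M, a relative of TFB2M, methylates the small mitochondrial ribosomal RNA, and POLG is the catalytic subunit of the polymerase that copies mtDNA. In heart muscle this system is known for supporting a high content of mitochondria.

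The letters of the NRF1 or GABP binding motif were present in 5 of the 10 promoters, and these stretches are shown because the factors that read such letters are themselves members. The windows came from the RefSeq promoter table of the GRCr8 assembly, which holds all 10 members and runs from 250 bases before to 50 bases after each start. The letters searched on both strands were GCGCANGCG for NRF1 and CCGGAAGT for GABP and other ETS factors. The NRF1 letters were found in 3 of 10 members and in 5.80% of 33469 promoters. The ETS letters were found in 2 of 10 members and in 3.81% of all promoters. The nuclear receptor half-site AAGGTCA, the element that ESRRA reads, was found in 0 of 10 members and in 4.61% of all promoters. A match is a description of letters and not evidence of binding. Each sequence below is 30 bases of the gene's own strand with the motif in capitals. The windows lie at chr7:10610181-10610210 (plus strand) for Polrmt, chr13:93828621-93828650 (minus) for Tfb2m, chr1:213543508-213543537 (minus) for Esrra, chr20:17355306-17355335 (plus) for Tfam and chr1:142808941-142808970 (minus) for Polg. The first 3 hold the NRF1 letters, on the antisense strand in Polrmt and Tfb2m, and the last 2 hold the ETS letters.

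Polrmt: gcggcgcgtaCGCGTGCGCactgcgggcag

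Tfb2m: ctaggtcgttCGCATGCGCcattcgtaatg

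Esrra: agggaccgccGCGCACGCGtgtgtgtcgcc

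Tfam: cctgctgcagaCCGGAAGTctgggcctccc

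Polg: gagggcctcacCCGGAAGTccctctgccac

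The matches began 5 bases before the annotated start in Polrmt, 46 in Tfb2m, 56 in Tfam, 121 in Polg and 222 in Esrra. In the RefSeq table Polrmt overlaps no other gene. Polg overlaps Fanci by 881 bases, Gabpa overlaps Atp5pf by 682, Esrra overlaps Trmt112 by 52, and Tfb1m overlaps Tiam2 by 4260 bases, Cldn20 by 660 and a pseudogene by 5277. Ppargc1b overlaps the microRNA genes Mir378 and Mir3557. These overlaps are of whole gene spans with introns included, so the transcripts themselves need not share bases. No source used here states the strandedness of the library or of the counting, so reads may be shared where transcripts do overlap.

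Library totals ran from 26748673 to 48574618 estimated reads. The myoblast markers Myod1, Cdh15, Des and Myog exceeded 1 CPM (reads scaled to the library total, with TMM factors) in every library, whereas Myf5, Myf6 and Pax7 stayed under 1 CPM in all 9. Of 8 cardiomyocyte markers, Tnnt2 and Gata4 exceeded 1 CPM throughout and 5, among them Nppa and Nkx2-5, stayed below it. All markers of blood (4) and epithelial cells (3) and 3 of 4 endothelial markers were under 1 CPM in every library. Of 3 fibroblast markers, which mesenchymal myoblasts can share, Col1a1 and Dcn exceeded 1 CPM in every library and Pdgfra stayed below it. Of the 29 markers Col1a1, a collagen chain, was the 1 called between groups, and markers that failed the filter were not tested. In ESW against Control Myod1 was at 1.24-fold (edgeR adjusted p = 0.0581) and Des at 0.790-fold (edgeR adjusted p = 0.144). For each of these genes the ESW and Control libraries did not overlap. On the first principal component (24.1% of the variance) Control replicate 1 lay at -10.9, inside the range of ESW (-28.7 to -8.79). The other Control libraries lay at 7.08 and 12.3. The results for Polrmt are therefore also given without Control replicate 1.

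Levels of different genes are compared in TPM, which is scaled for transcript length as well as for the library total. Tfam and Tfb2m had the highest TPM of the group, and Ppargc1b had the lowest. Over the 9 libraries Tfam averaged 32.3 ± 2.24 TPM (SD, n = 9) and Tfb2m 32.2 ± 2.18. Their ranges overlapped, and Tfam was the higher of the pair in only 5 of 9 libraries. Esrra followed at 26.1 ± 1.66 TPM, higher than Tfb1m (22.0 ± 1.41) in every library with no overlap of the ranges.

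Pprc1 and Gabpa came next, with means of 20.8 ± 0.865 and 19.98 ± 1.14 TPM. The ranges of Tfb1m, Pprc1 and Gabpa overlapped from neighbour to neighbour, so that their order was not fixed beyond the spread. Nrf1 at 16.4 ± 0.874 and Polg at 15.5 ± 0.775 TPM overlapped as well. Polrmt lay clearly lower, at 7.52 ± 0.716 TPM with a range of 6.87 to 9.005. The polymerase that transcribes mtDNA thus had a lower mRNA level per length than its partners Tfam and Tfb2m in all 9 libraries.

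Ppargc1b, the coactivator with a single RefSeq transcript, stood at 0.292 ± 0.0639 TPM, with only 10.4% of the tested genes below it. It had 16 to 37 reads per library, against 437 to 3451 for the other 9 members. Ppargc1a, the best known coactivator of the family, was lower still and failed the filter, with 13 reads over all 9 libraries. Pprc1 was therefore the PGC-1 family member with the highest TPM and reads in these cells.

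In ESW against Control, Polrmt, the mitochondrial RNA polymerase, was the 1 of 10 members called, at 1.21-fold, while the other 9 were not called. Length offsets ended this call. Of the 10 members 4 had a positive log2 fold change and 6 a negative one. Over all tested genes 8.04% were called in this comparison at an adjusted p below 0.05 (edgeR's quasi-likelihood test with Benjamini-Hochberg adjustment over 14706 genes), so that 1 of 10 is near the background; 4.76% were higher and 3.28% lower. The coactivators and transcription factors showed no called difference, and their intervals were narrow except for Ppargc1b. The median log2 fold change of the members was -0.03, against -0.01 for all tested genes.

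Polrmt had 15.0, 14.7 and 14.8 CPM in Control replicates 1 to 3, 17.1, 16.7 and 19.995 in the ESW libraries, and 16.2, 17.3 and 15.9 in the CW libraries. All 3 ESW and all 3 CW libraries lay above all 3 Control libraries, and the highest single value was that of ESW replicate 3. The mean was 14.8 ± 0.190 CPM in Control, 16.5 ± 0.722 in CW and 17.9 ± 1.79 in ESW (SD, n = 3 for each). The log2 fold change was 0.27 (SE 0.07, adjusted p = 0.0288), and the 95% interval of the fold ran from 1.08 to 1.35. By its p Polrmt ranked 848 of the 14706 genes. The summed fibroblast markers ran from 30230 to 32271 CPM in Control, 37363 to 39200 in ESW and 31470 to 33423 in CW, nearly all of it Col1a1. Col1a1 was 1.22-fold higher in ESW than in Control (adjusted p = 9.5e-05) and 1.18-fold higher than in CW (adjusted p = 0.00083), whereas Dcn was not called in either, and the part of this difference in the Polrmt result was not tested. In bulk RNA a change per cell and a change in the number of expressing cells cannot be told apart.

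The call for Polrmt depended on how transcript length entered the values. Salmon assigns each transcript an effective length in each library, and for Polrmt it was 3419, 3466 and 3561 bases in Control, 3931, 3426 and 3684 in ESW, and 3610, 3769 and 3726 in CW. ESW replicate 1 had the longest effective length and ESW replicate 2 nearly the shortest. The values of ESW replicate 1 and CW replicate 2 exceed the 3748 bases of the longest Polrmt transcript. Those of Ppargc1b, Pprc1 and Polg exceed the longest transcript in all 9 libraries, for example 3714 to 4002 against 3252 bases for Ppargc1b. These deposited lengths are therefore adjusted by more than the fragment size, in a way no source used here states, and TPM and length offsets carry that adjustment. In TPM, which divides by this length, Polrmt was at 7.51, 6.97 and 6.87 in Control and at 6.97, 8.23 and 9.005 in ESW, so that the groups overlapped. With offsets for the average effective length in the edgeR test, the log2 fold change fell to 0.17 (adjusted p = 0.289). Leaving out ESW replicate 3 gave 0.19 (adjusted p = 0.198), leaving out Control replicate 2 gave 0.27 (adjusted p = 0.0955), and leaving out Control replicate 3 also gave 0.27 (adjusted p = 0.0875). Without Control replicate 1 the value was 0.28 (adjusted p = 0.0366).

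**Figure D1:**
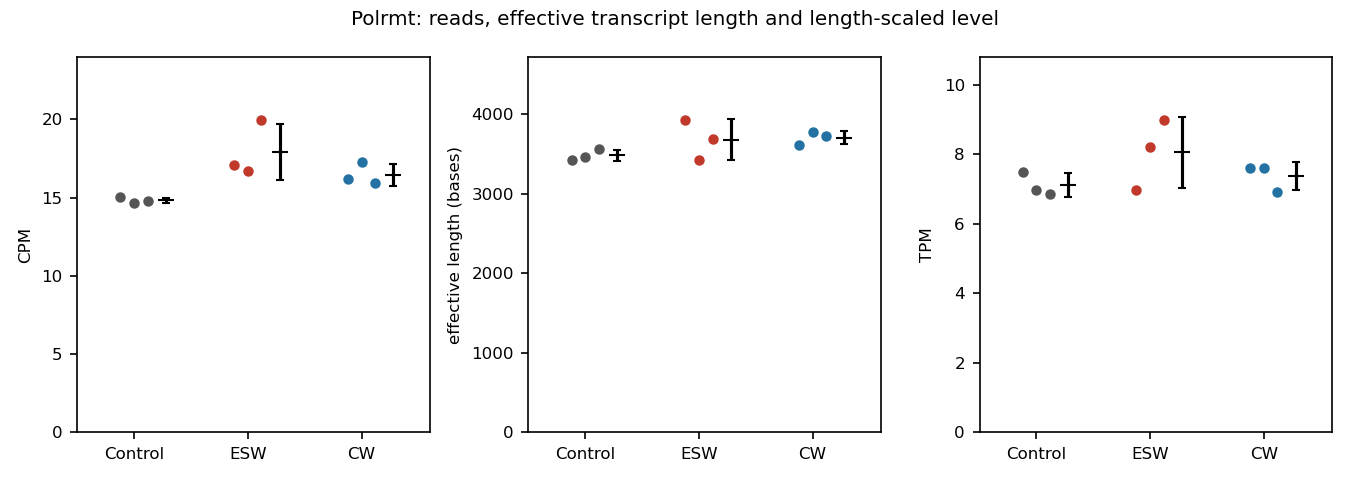
Polrmt in the 9 libraries: CPM (left), effective transcript length in bases (middle) and TPM (right), with 1 point per library and a bar for the mean ± SD of each group of 3. The ESW and CW libraries lie above the Control libraries in CPM, whereas in TPM the groups overlap.

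The 3 factors that act with POLRMT on mtDNA or on its transcripts had negative fold changes and were not called. Tfam, the packaging factor, had 20.97, 22.8 and 22.4 CPM in Control and 20.96, 19.5 and 19.995 in ESW. Tfb1m, the rRNA methyltransferase, had 19.6, 19.3 and 18.4 CPM in Control and 16.6, 18.1 and 16.3 in ESW. Tfb2m, the promoter-opening factor, had 26.2, 28.4 and 26.7 CPM in Control and 25.6, 23.4 and 25.7 in ESW. In each of the 3 genes every ESW library lay below every Control library although for Tfam ESW replicate 1 and Control replicate 1 nearly met. Such a separation in either direction was seen for 25.6% of all tested genes (13.3% higher, 12.4% lower), and for 4 of 10 members with Polrmt included.

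The log2 fold change was -0.17 for Tfb1m (SE 0.07, adjusted p = 0.131), -0.13 for Tfam (SE 0.07, adjusted p = 0.268) and -0.12 for Tfb2m (SE 0.06, adjusted p = 0.225). Besides Polrmt, Tfb1m alone had an unadjusted edgeR p below 0.05, a threshold that 22.8% of all tested genes met. In TPM the ESW and Control libraries remained apart for Tfb1m but overlapped for Tfam and Tfb2m. Polg, the mtDNA polymerase, ranged from 44.1 to 46.5 CPM in Control and from 45.6 to 49.9 in ESW, a difference of 0.08 on the log2 scale (SE 0.05, adjusted p = 0.425).

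**Figure D2:**
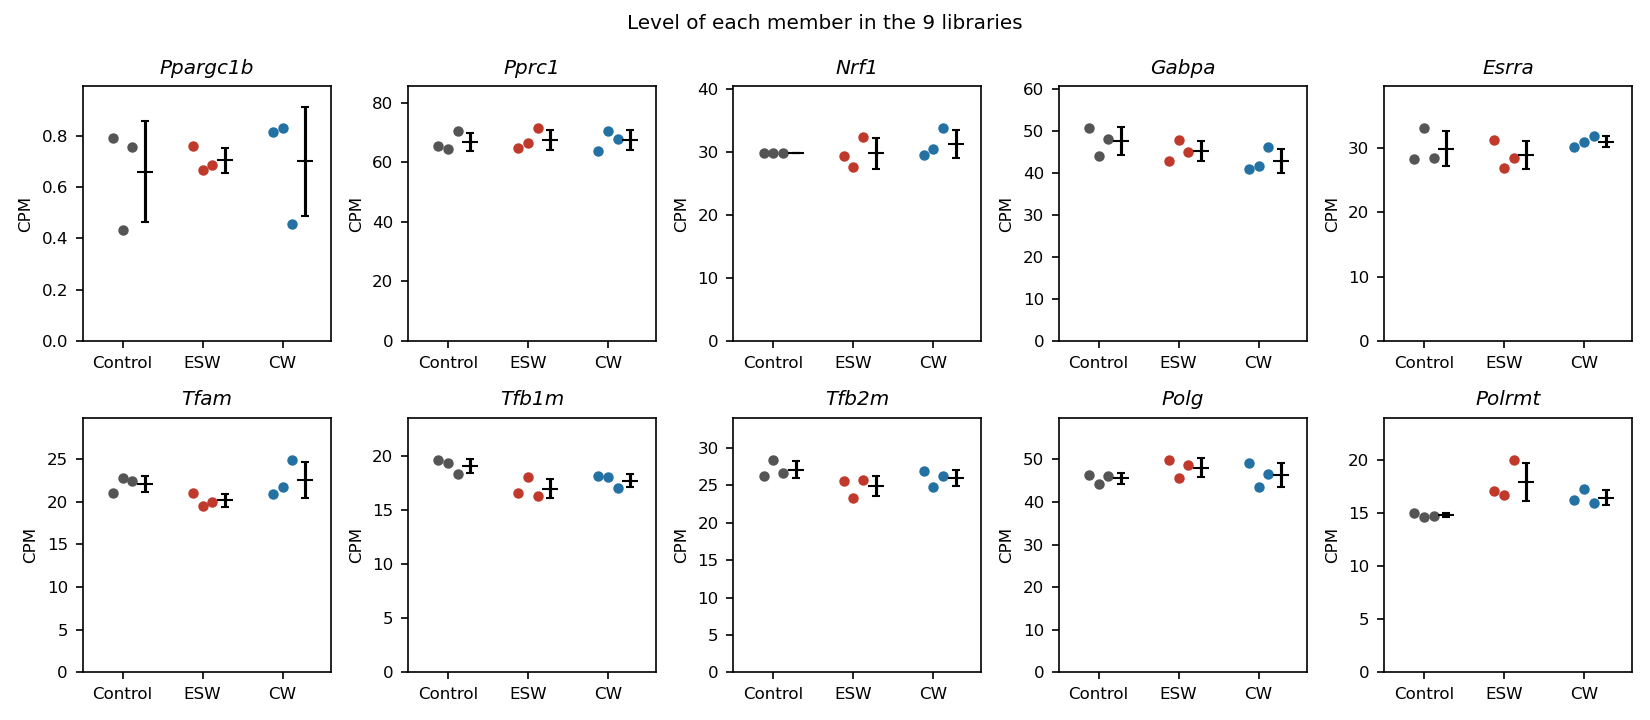
CPM of the 10 members by library, 1 panel per gene with its own axis from 0, and a bar for the mean ± SD of each group of 3 libraries. Polrmt is the gene whose ESW and CW libraries all lie above Control, and Ppargc1b is under 1 CPM in all 9 libraries.

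Among the transcription factors, Nrf1 had 29.8 CPM in all 3 Control libraries and 29.3, 27.6 and 32.4 in ESW. The ESW libraries lay on either side of the Control level, and the log2 fold change was -0.0039 (95% interval -0.14 to 0.13). Gabpa stood at 47.5 ± 3.36 CPM in Control and 45.2 ± 2.44 in ESW, a log2 fold change of -0.07 (95% interval -0.20 to 0.05). Esrra stood at 29.9 ± 2.71 and 28.9 ± 2.19 CPM, a log2 fold change of -0.05 (95% interval -0.19 to 0.09).

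For the coactivators, Pprc1 was at 66.8 ± 3.11 CPM in Control and 67.6 ± 3.34 in ESW, a log2 fold change of 0.01 (95% interval -0.09 to 0.12). Pprc1 thus had the narrowest interval of the 10 members. Ppargc1b had 0.790, 0.434 and 0.755 CPM in Control and 0.760, 0.664 and 0.686 in ESW, and the interval of its log2 fold change of 0.08 ran from -0.64 to 0.80. Differences in Ppargc1b within this interval, 0.641 to 1.74 as a fold, were not resolved at this depth. For the 8 uncalled members other than Ppargc1b, every bound of the fold lay between 0.810 and 1.14.

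In ESW against CW none of the 10 members was called by edgeR, DESeq2 or limma-voom. Of all tested genes edgeR called 8.14% (4.15% higher, 3.99% lower). Tfam was the 1 member with an unadjusted edgeR p below 0.05, where 23.9% of all tested genes had one. Tfam had 20.8, 21.8 and 24.9 CPM in CW, and the 3 ESW values given above overlapped them through ESW replicate 1. Tfam differed by -0.16 on the log2 scale (SE 0.07, adjusted p = 0.163 in edgeR), and in TPM its ESW libraries lay below the CW libraries without overlap.

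Polrmt, the member called against Control, was 1.09-fold higher in ESW than in CW (95% interval of the fold 0.974 to 1.21, adjusted p = 0.356 in edgeR). The ESW and CW libraries overlapped, with CW replicate 2 at 17.3 above ESW replicate 2 at 16.7 CPM. For Esrra and Nrf1 the log2 fold changes were -0.10 and -0.07. Those of Gabpa and Polg were 0.08 and 0.06, and those of Tfb1m and Tfb2m were both -0.06. The 2 coactivators were at 0.0022 for Pprc1 and 0.01 for Ppargc1b. No member separated the ESW from the CW libraries in CPM, where 28.3% of all tested genes did (14.9% higher, 13.4% lower).

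In CW against Control none of the 10 members was called by edgeR, DESeq2 or limma-voom. Of all tested genes edgeR called 0.177% (0.0272% higher, 0.15% lower). An unadjusted edgeR p below 0.05 was found for 1 member and for 9.87% of all tested genes. That member was Gabpa, with 50.5, 43.9 and 48.1 CPM in Control and 40.95, 41.6 and 46.1 in CW. CW replicate 3 lay above Control replicate 2, and Gabpa differed by -0.15 on the log2 scale (SE 0.06, adjusted p = 0.412 in edgeR). Polrmt was higher by 0.15 on the log2 scale (95% interval of the fold 0.996 to 1.24, adjusted p = 0.527), and by 0.05 with length offsets.

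The libraries of CW and Control did not overlap for Polrmt, higher in CW, and for Tfb1m, lower in CW at 18.1, 18.0 and 17.0 CPM. That is 2 of 10 members, against 14.7% of all tested genes (7.13% higher, 7.56% lower). The comparisons of ESW and of CW with Control share the same 3 Control libraries, in which Polrmt varied little. A single test over the 3 groups called none of the 10 members by edgeR, DESeq2 or limma-voom, where edgeR called 9.58% of all tested genes. Polrmt had the smallest p of the members in that test (adjusted p = 0.059, edgeR). It was the 1 member with an unadjusted p below 0.05, where 25.2% of all tested genes had one.

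**Figure D3:**
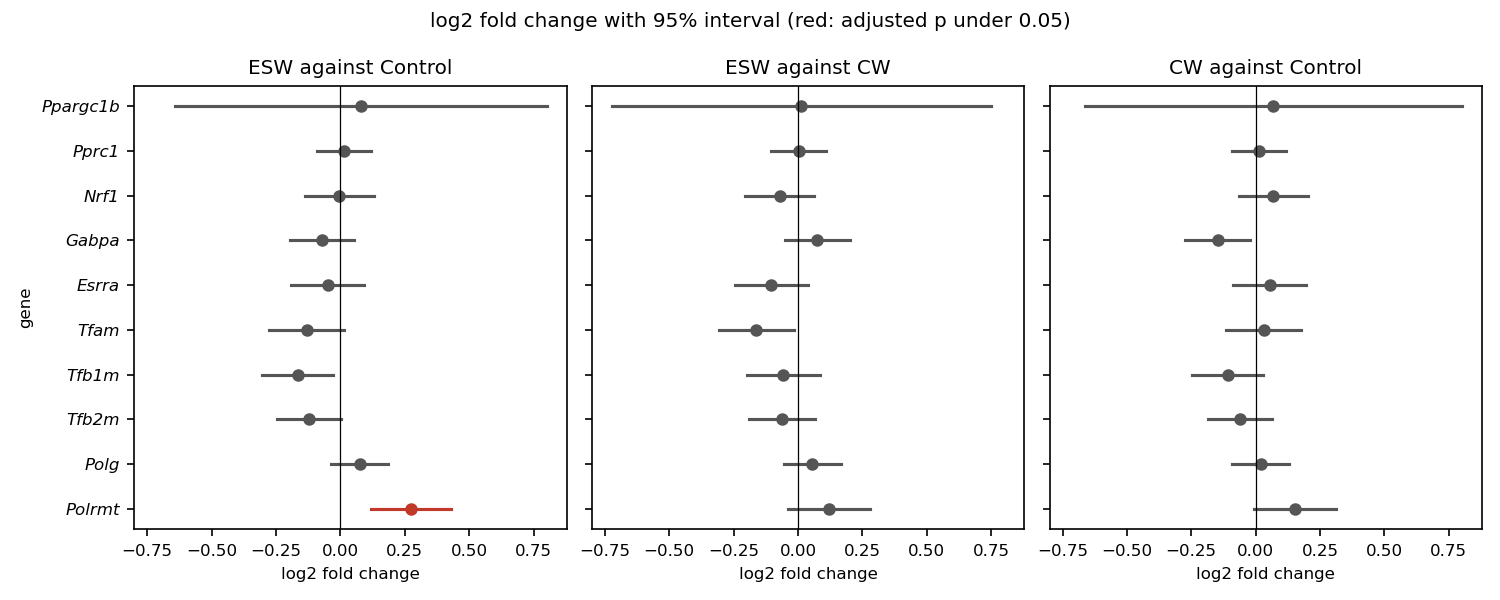
Log2 fold change of each member (x axis) with its 95% interval in the 3 comparisons, from edgeR's model over 9 libraries; red marks an adjusted p under 0.05. Polrmt in ESW against Control is the single red point, at 0.27, and Ppargc1b has the widest intervals.

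Of the members 8 have more than 1 RefSeq transcript, and the reads of Salmon were divided among them by estimate. Esrra, Polg, Tfb1m and Tfb2m each had a leading transcript with an average share of 87.6%, 75.9%, 77.5% and 68.6% of the gene's TPM. In Gabpa 2 transcripts of 4828 and 4570 bases held 55.9% and 37.8%. Nrf1 and Pprc1 had no transcript above 50% on average, with leading shares of 41.2% and 23.8%.

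The 2 transcripts of Polrmt differ by 3 bases in length, at 3745 and 3748 bases. The shorter held 95.4%, 67.8% and 68.6% of the Polrmt TPM in Control, 89.4%, 86.3% and 85.9% in ESW, and 71.4%, 72.5% and 89.6% in CW. Control replicate 1 and CW replicate 3 lay above all 3 ESW libraries and the other Control and CW libraries below them. In Pprc1 the transcript with the highest average share held 3.86% in CW replicate 3 and 19.4% to 30.7% in the other libraries. These shares were not tested, and transcripts this alike can be told apart only by the few reads that cover their difference.

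**Figure D4:**
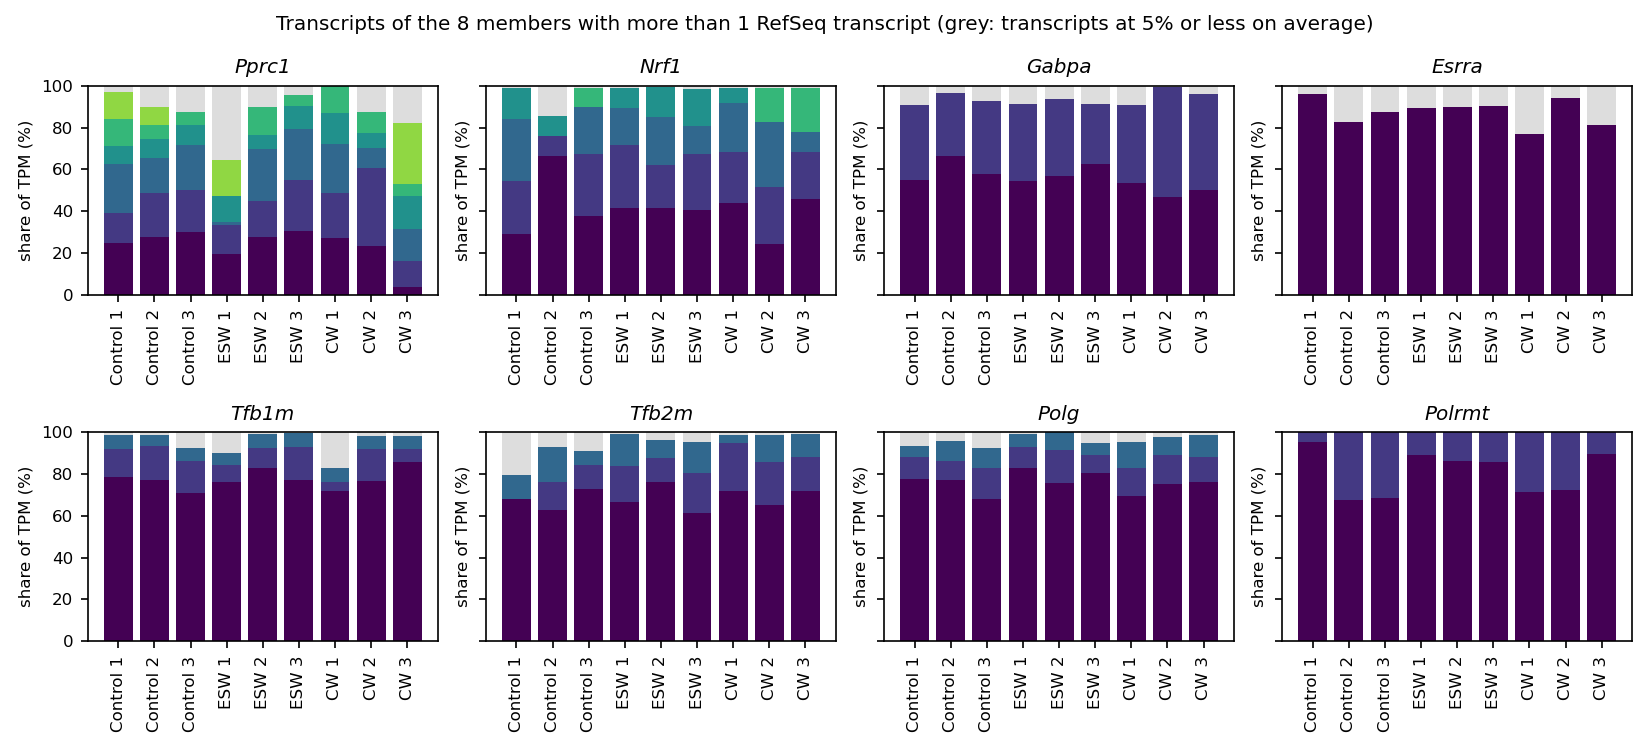
Share of a gene's TPM (%) held by each transcript in each of the 9 libraries, for the 8 members with more than 1 RefSeq transcript; colours mark transcripts with an average above 5% and grey the remainder. Esrra, Polg, Tfb1m, Tfb2m and Polrmt are led by a single transcript, whereas Nrf1 and Pprc1 are divided among several.

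The genes around these regulators were described from 5 lists. Of 26 other regulators of biogenesis (coactivator partners, upstream kinases and nuclear receptors), 21 were tested. In ESW against Control 1 was higher, 0 lower and 20 not called, and the same counts were found in ESW against CW, where 8.04% and 8.14% of all tested genes were called. The called gene was Ppard, a fatty acid-sensing nuclear receptor, in each comparison. It had 25.0, 24.8 and 23.7 CPM in Control, 27.9, 28.5 and 27.9 in ESW, and 26.0, 23.5 and 24.5 in CW. Its log2 fold change was 0.20 against Control (adjusted p = 0.0353) and 0.19 against CW (adjusted p = 0.0468). The call against Control was lost under 7 of 17 alternatives: length offsets, the replicate block, and leaving out Control replicate 2 or 3 or any ESW library. That against CW was lost under 12 of 17, with DESeq2, length offsets, other filters and the block among them and without Control replicate 2, CW replicate 2 or 3, or any ESW library.

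Of 24 genes of mtDNA replication and the nucleoid, 23 were tested. In ESW against Control 0 were called by edgeR or limma-voom (5 at an unadjusted p below 0.05 in edgeR) and 1 by DESeq2, Lonp1, named here after its values were seen. In ESW against CW 2 were lower, 0 higher and 21 not called, a share near the 8.14% of all tested genes. Slc25a36, a carrier that brings pyrimidine nucleotides into mitochondria, was at 48.96 ± 3.85 CPM in ESW and 61.7 ± 5.13 in CW, a log2 difference of -0.34 (adjusted p = 0.0099). Control lay between them at 54.6 ± 6.21 CPM. Against Control, ESW was at -0.16 and CW at 0.18 on the log2 scale, neither called. Phb1, a prohibitin of the inner membrane, was at 65.8 ± 2.71 and 78.7 ± 3.93 CPM, a log2 difference of -0.26 (adjusted p = 0.0468). In Control Phb1 was at 76.1 ± 12.4 CPM. Phb1 lost its call with DESeq2, with limma-voom and without Control replicate 2, CW replicate 2 or 3, or any ESW library. Slc25a36 lost its call without ESW replicate 2 or 3 or CW replicate 2 or 3.

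Of 29 genes of mitochondrial transcription and RNA maturation, 27 were tested, and 2 were called lower and 0 higher in each comparison with ESW. Of all tested genes 8.04% were called against Control (3.28% lower) and 8.14% against CW (3.99% lower), so the count is near the background. Mtpap, the mitochondrial poly(A) polymerase, fell in both. It had 12.9, 12.3 and 11.99 CPM in Control, 10.4, 10.3 and 9.80 in ESW, and 12.1, 12.6 and 12.8 in CW. Every ESW library lay below all 6 others, and the log2 fold change was -0.28 against Control (adjusted p = 0.0248) and -0.30 against CW (adjusted p = 0.0221).

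Mrpl12, a ribosomal protein that also binds POLRMT, fell from 46.0 ± 2.68 CPM in Control to 39.5 ± 0.956 in ESW (log2 fold change -0.22, adjusted p = 0.011). In CW Mrpl12 was at 42.5 ± 0.949 CPM, and ESW against CW was not called (-0.10, edgeR adjusted p = 0.233). Every CW library also lay below every Control library, at an uncalled -0.12 (edgeR adjusted p = 0.446). Tefm, the elongation factor of POLRMT, was at 4.38 ± 0.757 CPM in ESW and 6.26 ± 0.102 in CW (log2 fold change -0.51, adjusted p = 0.018). Against Control Tefm was at -0.35 and not called (adjusted p = 0.0888). With length offsets Mtpap lost its call in both comparisons, whereas Mrpl12 and Tefm stayed called. Mrpl12 lost its call without Control replicate 3 or ESW replicate 3, Tefm without ESW replicate 1, CW replicate 2 or CW replicate 3, and Mtpap without ESW replicate 2 or 3, Control replicate 1 or 2 (against Control), or CW replicate 2 or 3 (against CW).

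Of 22 textbook targets of NRF1 and GABP, 22 were tested. In each comparison with ESW 1 was higher, 1 lower and 20 not called, the higher gene being Alas1 and the lower Cox7b, near the 8.04% and 8.14% called over all tested genes. Alas1, the first enzyme of haem synthesis, had 23.7 ± 1.37 CPM in ESW, 20.2 ± 0.897 in Control and 20.4 ± 0.772 in CW. Its log2 fold change was 0.24 against Control (adjusted p = 0.0243) and 0.22 against CW (adjusted p = 0.0398), and length offsets ended each call. The first call was also lost without Control replicate 3 or ESW replicate 2 or 3, and the second without ESW replicate 2 or 3 or any CW library. Cox7b, a small subunit of cytochrome c oxidase, had 68.6 ± 3.09 CPM in ESW, 85.7 ± 3.75 in Control and 80.0 ± 5.20 in CW. It fell by 0.32 on the log2 scale against Control (adjusted p = 0.00088), called under all 17 alternatives, and by 0.22 against CW (adjusted p = 0.0116), called under 14 of 17 and lost without ESW replicate 2 or 3 or CW replicate 3. 

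Of 10 textbook targets of ESRRA, 9 were tested, and edgeR called 0 higher and 1 lower in ESW against Control and 1 higher and 1 lower in ESW against CW, where it called 8.04% and 8.14% of all tested genes. DESeq2 called 1 in ESW against Control, Slc25a4 (an ADP/ATP carrier), named here after its values were seen. Among the tested genes of the 5 lists its Cpt1b had the largest fold change in each of these comparisons. Cpt1b, the muscle form of the carnitine palmitoyltransferase that admits fatty acids to mitochondria, had 2.55, 3.69 and 4.71 CPM in Control, 2.59, 1.66 and 2.31 in ESW, and 3.63, 4.71 and 4.801 in CW. Control replicate 1 lay within the ESW range, while all CW libraries lay above ESW. The fold was 0.592 against Control (95% interval 0.437 to 0.800, adjusted p = 0.0298) and 0.493 against CW (95% interval 0.364 to 0.668, adjusted p = 0.0066). The call against CW held under all 17 alternatives, and that against Control was lost with length offsets and without Control replicate 2 or 3 or ESW replicate 2 or 3. DESeq2 gave Cpt1b no adjusted p against Control, at a log2 fold change of -0.75. Idh3a, a subunit of isocitrate dehydrogenase, was higher by 0.16 in ESW than in CW (adjusted p = 0.0149), a call lost with length offsets and without ESW replicate 3 or CW replicate 2 or 3. It had 93.3 ± 1.99 CPM in ESW, 89.8 ± 1.64 in Control and 83.3 ± 0.983 in CW. ESW against Control was 0.06 (edgeR adjusted p = 0.419), with overlapping libraries. CW against Control was -0.11 (edgeR adjusted p = 0.340), with every CW library below Control.

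In CW against Control none of the 102 tested genes of the 5 lists was called by edgeR or limma-voom, and 10 had an unadjusted p below 0.05 in edgeR, where 9.87% of all tested genes had one. DESeq2 called 1, Cycs (cytochrome c), named here after its values were seen. The medians of the lists lay between -0.04 and 0.03 in ESW against Control and between -0.06 and 0.05 in ESW against CW, where all tested genes had medians of -0.01 and -0.0018. In CW against Control they lay between -0.0542 and 0.0085, against -4e-04 for all tested genes. The lowest was that of the NRF1 and GABP targets, with 17 negative and 5 positive log2 fold changes. The CW libraries lay wholly below Control for 6 of these targets and wholly above for 1. Over all tested genes 7.56% lay below and 7.13% above. In ESW against Control 6 targets of this list also lay wholly below and 3 wholly above. Over all tested genes 12.4% lay below and 13.3% above in that comparison. The 2 comparisons share the same Control libraries. Whether this list differs as a set was not tested. No mRNA encoded by mtDNA itself, the product of POLRMT, was found among the summed genes by the symbols searched, so these transcripts were not analysed.

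**Figure D5:**
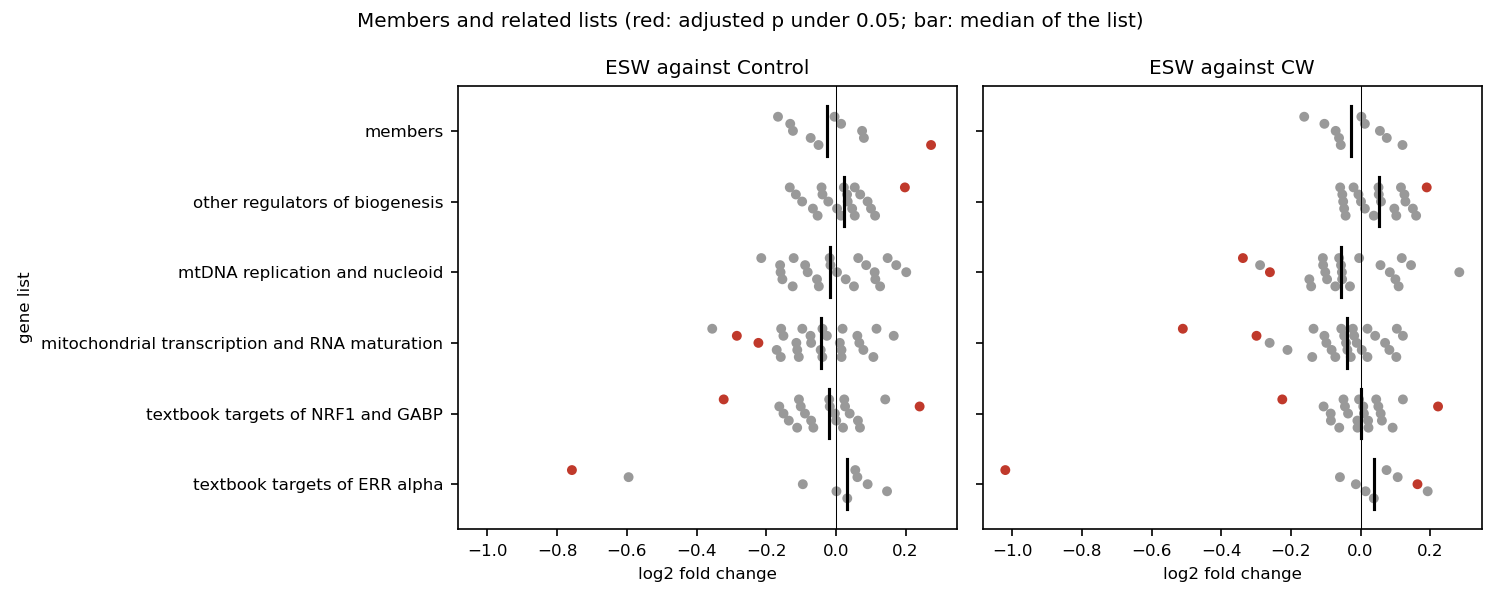
Log2 fold changes (x axis) of the members and of the genes of the 5 lists (rows) in ESW against Control (left) and ESW against CW (right), 1 point per tested gene, red for an adjusted p under 0.05 and a bar for the median of the list. Most points are grey, and Cpt1b is the point farthest to the left, at -0.76 and -1.02.

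Over the 9 libraries the correlations between pairs of members were positive for some pairs and negative for others. Polrmt and Tfb1m had the most opposed patterns, with a Pearson r of -0.79 of their log2 CPM, and Esrra and Tfam the most alike, with 0.68. These values describe 9 libraries of 3 groups, share their scaling and were not tested. Among 8859 other genes averaging 10 CPM or more, the 3 most like Polrmt were Synrg, Ndst2 and Atxn2, with r of 0.975, 0.974 and 0.965. The 3 most like Tfb1m were Zfp81, Pggt1b and Eif2s3, with r of 0.984, 0.971 and 0.959. Leaving out any 1 library kept these 6 values between 0.909 and 0.994. The 6 genes were picked for their high r in these same libraries, so that range is not an independent check.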

How the data were processed

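RNA of 9 samples was quantified with Salmon 1.10.3, per the submitters' processing notes, which also name DESeq2. The deposited tables give, per the file headers, an estimated count (reads divided among transcripts), the TPM and, as another kind of value, the length and effective length in bases of 114122 RefSeq transcripts. The build, annotation release and bias options are not given in the sources used here. Estimated counts and TPM were summed per gene over the RefSeq table of GRCr8, to which all 114122 transcripts matched, and counts were rounded.

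The main test was edgeR 4.0.16 (R 4.3.3), quasi-likelihood, with TMM scaling, filterByExpr and 1 mean per group (6 residual degrees of freedom). It was run on simulated counts with the same spread for every gene and planted folds larger than that of Polrmt. Recovery of a change as small as that of Polrmt was therefore not tested. Log2 CPM used a prior count of 2. Alternatives were DESeq2 size factors, 2 other filters, DESeq2 1.42.0, limma-voom (limma 3.58.1), length offsets, 2 groups at a time, a replicate block and leaving out each library.

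Members and lists were chosen with earlier results of these data known. All 10 members are named, and of each list at most the 4 called genes with the smallest p. Of the list genes 1 (Trmt61b) had no entry in the table. For the 2 members with the smallest p over the 3 groups, the 3 most correlated genes are named. Replicates of a group differed beyond sampling noise (chi-square per degree of freedom 3.46 to 8.73).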

Additional observations from a re-analysis of the deposited data

How the results depend on the processing

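For ESW against Control 1 member and 1183 genes were called, with length offsets 0 members and 440 genes, and 0 to 1 members and 397 to 1544 genes when 1 library was left out. For ESW against CW the 1197 genes became 314 to 1486 when 1 library was left out, and no alternative called a member. For CW against Control the 26 genes became 273 without a filter, 80 with DESeq2, 1 with length offsets, 16 with only the 2 groups fitted, and 5 to 51 when 1 library was left out, with 0 members throughout. DESeq2 gave Ppargc1b no adjusted p in either comparison with Control. The 3-group test called 1 member without a filter, and its 1409 genes became 629 with length offsets and 398 to 1662 when 1 library was left out.

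Samples with the same replicate number did not deviate together (correlations -0.118 to 0.04, and 1 of 9 libraries correlated best with its own number), so the numbers are not taken as pairs. With the replicate block 971, 949 and 25 genes were called in the 3 comparisons and 1, 0 and 0 members, with Polrmt at 0.27 (adjusted p = 0.0459).

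Signs changed only for uncalled members with values near 0 on the log2 scale. In ESW against Control Pprc1 went to -0.0048 with length offsets. In ESW against CW it went to -0.013 with a filter of 1 CPM in 3 libraries, -5e-04 with limma-voom and -0.0057 with only the 2 groups fitted. In CW against Control length offsets gave -0.0151 for Pprc1 and -0.0339 for Polg. With 1 library left out, ESW against Control ran from -0.0272 to 0.0552 for Pprc1, -0.071 to 0.0506 for Nrf1, -0.1085 to 0.0255 for Esrra and -0.1346 to 0.2151 for Ppargc1b. ESW against CW ran from -0.0415 to 0.037 for Pprc1 and -0.2248 to 0.1707 for Ppargc1b. CW against Control ran from -0.0216 to 0.052 for Pprc1, -0.022 to 0.0653 for Polg, -0.0491 to 0.078 for Tfam and -0.1475 to 0.3059 for Ppargc1b. Ppargc1b, at 16 to 37 reads per library, is the member whose intervals depth widens most.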
